A study of Mus musculus with 4 samples.

Results

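The 10 genes described here encode components or an adaptor of the junctions of the seminiferous epithelium. They were followed in mouse testis with and without the adhesion molecule Tslc1, named Cadm1 in current annotation. They are Cdh2, Ctnnb1, Ctnna1 and Vcl of the adherens junction, Cldn11 and Tjp1 of the tight junction, Gja1 of the gap junction, and Itgb1, Itga6 and Itgb1bp1 of integrin adhesion. Their probe sets were taken as every probe set whose platform annotation names exactly 1 gene, that gene being among these 10. This gave 18 of the 12422 non-control probe sets of the array, with all 10 genes represented, and 16 of the 18, again covering all 10 genes, had a mean signal of at least 200 and entered the 7975 probe sets tested. Those 10 genes stand among 8251 distinct genes named by the array. Testis RNA was hybridised to 4 Affymetrix mouse expression arrays, 2 for Tslc1-/- and 2 for Tslc1+/+ males, and every male was 16 weeks old and of strain C57BL/6J. How the Tslc1 allele was made, and whether an array held RNA of 1 animal or of a pool, is not given in the sources used here. A p-value here thus covers the spread among 4 arrays, and that spread may be technical. The spread used for each probe set was drawn partly from other probe sets of like brightness.

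In the seminiferous epithelium, somatic Sertoli cells hold germ cells through actin-anchored contacts named ectoplasmic specializations. N-cadherin and its catenins are the classical adhesion complex of these contacts, and an integrin complex is found at those facing spermatids. Between neighbouring Sertoli cells, claudins linked to actin by zonula occludens proteins form the blood-testis barrier, which coexists with gap junctions made of connexins. Cadm1 itself is an immunoglobulin superfamily molecule of spermatogenic cells. Whole testis RNA mixes all of these cells, so fewer cells of a type and less RNA per cell cannot be told apart in any value below.

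The Cadm1 signals were low on both Tslc1-/- arrays. On its brightest probe set they were 775.9 and 604.5 in Tslc1-/- testis, against 3449.5 and 4027.9 in Tslc1+/+ testis (log2 change -2.36, limma, Benjamini-Hochberg adjusted p = 1.83e-04). Markers of Sertoli cells, the cells that build the barrier, were present: 14 of 16 were on the array, all 14 were tested and none passed (limma). Their summed signal was 49497 and 49981 in Tslc1-/- testis and 52373 and 50661 in Tslc1+/+ testis. Of the spermatid markers, 5 of 9 tested for elongating and 4 of 8 tested for round spermatids passed as lower (adjusted p under 0.05, limma). None passed as higher, and 0.84% of all tested probe sets passed as lower. The summed elongating spermatid signal was 400351 and 373111 in Tslc1-/- testis and 548872 and 555416 in Tslc1+/+ testis, and the round spermatid sum was 142224 and 142536 in Tslc1-/- testis and 201465 and 208777 in Tslc1+/+ testis. Endothelial markers, of which 3 of 7 were tested and none passed, summed to 1404 and 1403 in Tslc1-/- testis and 2383 and 2370 in Tslc1+/+ testis, and Leydig markers, of which 8 of 9 were tested and none passed, summed to 13256 and 14891 in Tslc1-/- testis and 15525 and 15654 in Tslc1+/+ testis. The sums are led by a few bright genes, and the median log2 change was 0.03 for both the Sertoli and the Leydig list and -1.13 for the 3 tested endothelial genes. Of these 3, Pecam1 and Kdr had log2 changes of -1.92 and -1.13, and Vwf had one of 0.22. The endothelial sum also holds genes under the signal minimum. Blood markers, of which 3 of 5 were tested and none passed, summed to 2826 and 2732.5 in Tslc1-/- testis and 2049 and 2470.5 in Tslc1+/+ testis. Hba-a1 and Slc4a1 had log2 changes of 0.75 and 0.51, while Alas2 went the other way at -0.53. The sums of peritubular myoid, macrophage, spermatogonial, epididymal and fat markers overlapped between genotypes, and none of those markers passed (limma). Of 7 spermatocyte markers 6 were on the array and 5 were tested, the exception being Sycp3, which was under the signal minimum. Of these 5, only Pgk2, a glycolytic enzyme of meiotic and later germ cells, passed, with a log2 change of -0.78 (adjusted p = 0.00495, limma). The list's median log2 change was 0.01, and its sums overlapped, at 91026 and 83182 in Tslc1-/- testis and 88236 and 91768 in Tslc1+/+ testis. Signals of each array are scaled to the same overall brightness, so every junction value is relative to that mixture.

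Of the 10 junction genes, 1 had a probe set that passed: Itgb1bp1, the integrin adaptor, read 0.56 of its Tslc1+/+ level on its brightest probe set. Its other probe sets did not pass, and the mean of its 3 probe sets had a log2 change of -0.14 (adjusted p = 0.843, limma). The call also depended on single arrays and on settings, as given below. No adherens, tight or gap junction gene passed the test, nor did either integrin subunit, and no junction probe set passed as higher. Among the 16 tested probe sets 1 passed an adjusted p of 0.05. Of all tested probe sets 0.84% passed as lower in Tslc1-/- and 1.08% passed in either direction. On 7 of the 16 probe sets both Tslc1-/- arrays lay below both Tslc1+/+ arrays, against 18.5% of all tested probe sets, and on 1 they lay above, against 21.5%. Several of these 7 were probe sets of the same gene, Itgb1 or Itgb1bp1. By the brightest probe set of each gene the Tslc1-/- arrays lay below for 5 of the 10 genes, dim Itga6 among them, and above for 0. The share of all genes on that basis was not computed. The median log2 change of the 16 was -0.21, beside 0.02 for all 7975, but without Tslc1-/- replicate 1 it was -0.0074. That array gave the lower signal of the Tslc1-/- pair for 9 of the 10 genes on their brightest probe set, and for 50.9% of all tested probe sets.

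**Figure D1:**
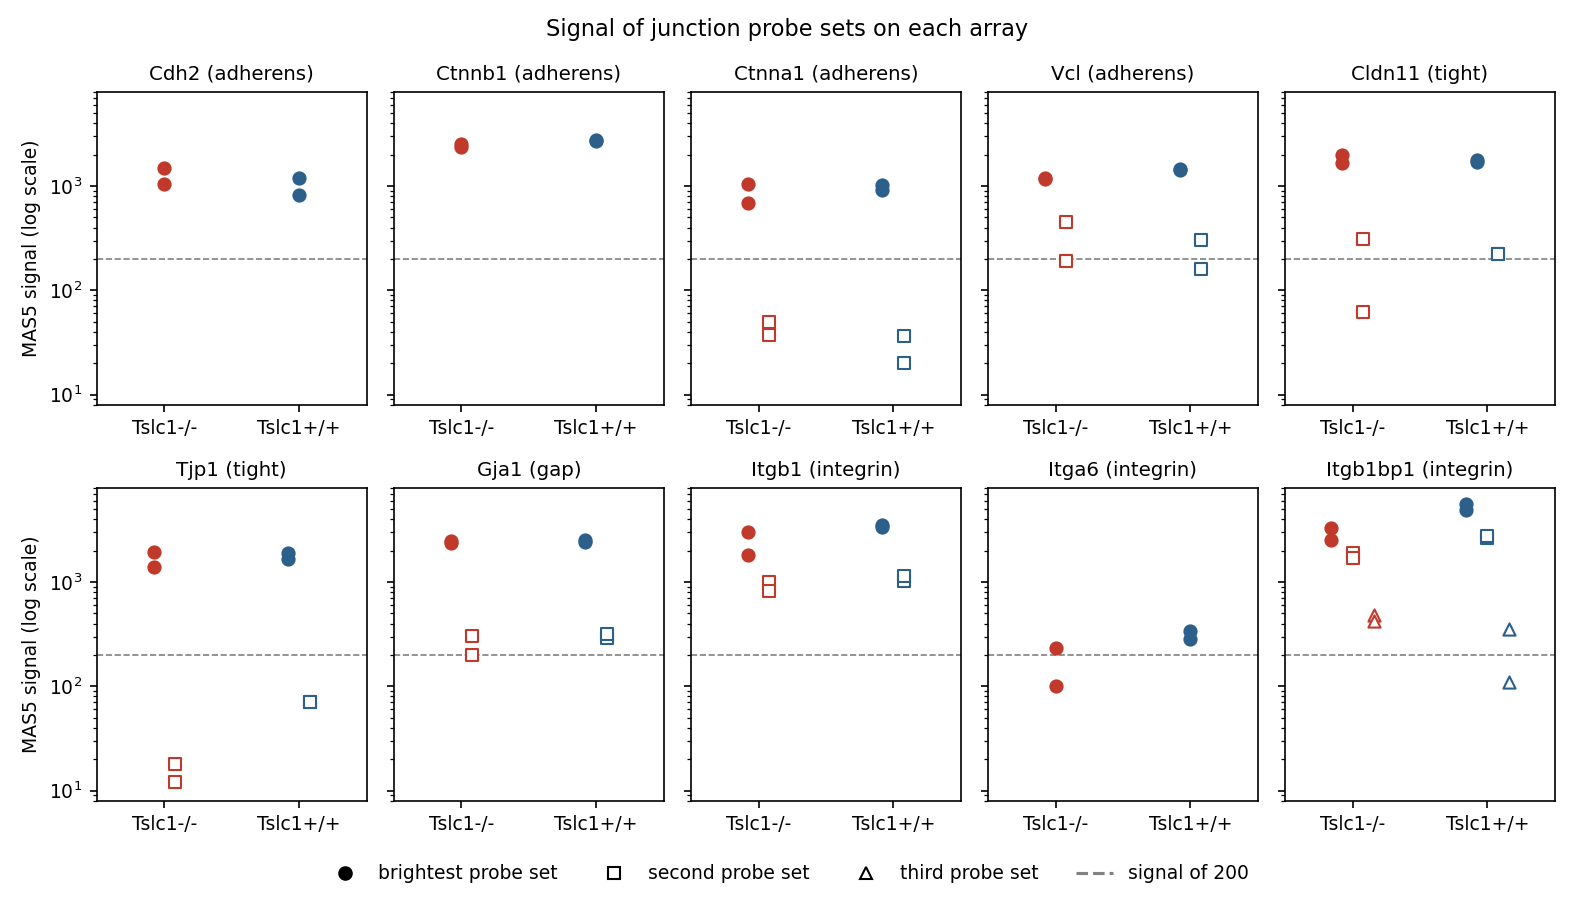
MAS5 signal on a logarithmic axis for every probe set of the 10 genes on each array, Tslc1-/- in red at the left and Tslc1+/+ in blue at the right of each panel, with filled circles for the brightest probe set and open symbols for the others. The brightest Itgb1bp1 probe set reads 2548.4 and 3299.6 in Tslc1-/- and 4880.5 and 5576.1 in Tslc1+/+. The filled circles of Gja1 and Cldn11 lie at about the same height in both genotypes.

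Itgb1bp1 had the passing probe set, and its protein binds the cytoplasmic tail of the integrin subunit that Itgb1 encodes. The promoters of both genes are therefore shown. Each is the 250 bases before the RefSeq start, read 5′ to 3′ on the gene's own strand, with bases in capitals where a searched motif matched on either strand.
Itgb1bp1 promoter, chr12:21286285-21286534 (GRCm38.p6, minus strand): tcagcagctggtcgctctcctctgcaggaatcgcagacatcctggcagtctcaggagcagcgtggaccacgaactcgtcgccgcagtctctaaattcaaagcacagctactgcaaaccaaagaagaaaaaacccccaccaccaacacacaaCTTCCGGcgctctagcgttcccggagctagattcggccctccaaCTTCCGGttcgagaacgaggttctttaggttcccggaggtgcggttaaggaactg
Itgb1 promoter, chr8:128685404-128685653 (GRCm38.p6, plus strand): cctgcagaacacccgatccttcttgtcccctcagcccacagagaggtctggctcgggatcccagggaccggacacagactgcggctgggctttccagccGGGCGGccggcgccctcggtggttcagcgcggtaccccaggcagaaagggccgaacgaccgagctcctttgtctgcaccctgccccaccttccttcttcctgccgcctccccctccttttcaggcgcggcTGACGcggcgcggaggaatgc

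The motifs searched were the GC box GGGCGG, the CCAAT box, the TATA box TATAAA, the cAMP response core TGACG, the E-box CACGTG and the ETS site CCGGAAG, none of which overlaps another in these windows. The Itgb1bp1 window held the ETS letters at 2 places, beginning 99 and 55 bases before the start, and none of the other motifs. The ETS letters were in 6.91% of all 32851 RefSeq windows of this length and in 1 of the 8 windows of the junction genes, of which Ctnnb1 has 2. The Itgb1 window held 1 GC box, 151 bases before the start, and 1 cAMP response core, 21 bases before it. GC boxes were in 32.7% of all windows and in 5 of the 8 junction windows, and that core was in 17.8% of all and in 3 of the 8. RefSeq windows were at hand for 7 of the 10 genes, and those of Cdh2, Ctnna1 and Itga6 were not analysed here.

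Among the integrin components, Itgb1bp1 encodes the integrin cytoplasmic domain-associated protein that binds the tail of the beta-1 subunit and competes with activators of the integrin. Its brightest probe set read 2548.4 and 3299.6 in Tslc1-/- testis, against 4880.5 and 5576.1 in Tslc1+/+ testis. Both Tslc1-/- arrays were below both Tslc1+/+ arrays. The mean was 2924 ± 531 for Tslc1-/- and 5228 ± 492 for Tslc1+/+ (SD, n = 2 each), a log2 change of -0.84 with a 95% interval from -1.17 to -0.50, so Tslc1+/+ was between 1.41-fold and 2.25-fold higher (adjusted p = 0.0276, limma). Its p-value was rank 69 among the 7975 tested.

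The second Itgb1bp1 probe set was annotated with the same sequence record and read 1894.6 and 1719.5 in Tslc1-/- testis, against 2670.4 and 2792.4 in Tslc1+/+ testis. The genotypes again did not overlap, and the log2 change was -0.58 with an interval from -0.92 to -0.25, but the adjusted p was 0.128 (limma). The third, annotated from another sequence record, had a positive change, with 485.7 and 427.1 in Tslc1-/- testis and 353.6 and 110.7 in Tslc1+/+ testis. That is a log2 change of 0.99 with an interval from -0.19 to 2.17 (adjusted p = 0.595, limma). The Tslc1+/+ replicate 2 signal of 110.7 lay under the signal minimum. Without that array the log2 change was 0.32, and without Tslc1+/+ replicate 1 it was 1.65. The brighter probe sets thus read lower signal in Tslc1-/- testis while the dimmest one did not, and the gene as the mean of all 3 had a log2 change of -0.14 (adjusted p = 0.843, limma).

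With each array left out in turn, the brightest Itgb1bp1 probe set had a log2 change from -1.02 to -0.65. Each such fit leaves 1 array in a genotype, which is assumed to vary like the other genotype's pair, and 37 to 43 of all 7975 probe sets then passed, against 86 with all arrays. Leaving out either Tslc1+/+ array ended the call (limma adjusted p = 0.107 for replicate 1 and 0.21 for replicate 2), as did leaving out Tslc1-/- replicate 1 (0.198), while it passed when Tslc1-/- replicate 2 was the one left out (adjusted p = 0.0483, limma). The call also ended when dim probe sets were tested too (adjusted p = 0.066, limma) or with a spread that ignored signal brightness (adjusted p = 0.538, limma), where 0 of all 7975 probe sets passed and 638 had an unadjusted p under 0.05. The letter g in its name marks a probe set that shares probes with another. The summed spermatid, endothelial, Leydig and Sertoli markers of both Tslc1-/- arrays lay below those of both Tslc1+/+ arrays. These sums are led by a few bright genes, and the Sertoli and Leydig lists each had a median log2 change of 0.03. The summed blood markers lay above, and the sums of the other marker lists overlapped, as given earlier. The part of these cell types in the Itgb1bp1 result was not tested. The protein-coding genes next to Itgb1bp1 in RefSeq order are Asap2 before it, not analysed here, and Cpsf3 of the messenger RNA cleavage machinery after it. Cpsf3 was looked up for its position and read 1248.7 and 1025.8 in Tslc1-/- testis and 1013.7 and 1027.5 in Tslc1+/+ testis, a log2 change of 0.14 (adjusted p = 0.866, limma).

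Itgb1, the beta-1 integrin subunit shared by many matrix and cell receptors, read 1807.8 and 3048.9 in Tslc1-/- testis, against 3524.9 and 3372.7 in Tslc1+/+ testis, on its brighter probe set. The Tslc1-/- arrays were both below, but replicate 1 was far lower than replicate 2. The log2 change was -0.54 with an interval from -1.01 to -0.07 (adjusted p = 0.404, limma), and it was -0.17 without Tslc1-/- replicate 1 and -0.91 without Tslc1-/- replicate 2. Its dimmer probe set read 998.9 and 824.9 in Tslc1-/- testis and 1027.6 and 1135.9 in Tslc1+/+ testis, with a log2 change of -0.24 (adjusted p = 0.776, limma). On that probe set replicate 1 was the higher of the Tslc1-/- pair. The names of both Itgb1 probe sets, and of both Gja1 probe sets, carry a letter that marks shared probes or relaxed probe selection.

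Itga6, the alpha subunit that pairs with beta-1 as a laminin receptor, was dim, at 101 and 234.3 in Tslc1-/- testis and 339.6 and 286.5 in Tslc1+/+ testis. The genotypes did not overlap, yet the log2 change of -0.81 had an interval from -2.18 to 0.57 (adjusted p = 0.73, limma). As a ratio of Tslc1-/- to Tslc1+/+ that interval runs from 0.221 to 1.48.

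Among the adherens components, Cdh2 encodes N-cadherin, the transmembrane adhesion molecule. It read 1040.7 and 1488.9 in Tslc1-/- testis and 825.3 and 1200.1 in Tslc1+/+ testis. The pairs overlapped, and the log2 change was 0.31 with an interval from -0.25 to 0.86 (adjusted p = 0.747, limma). Replicate 2 was the brighter array of both genotypes.

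Ctnnb1 encodes beta-catenin, which binds the cadherin tail and also acts in Wnt signalling. It read 2363.4 and 2537.9 in Tslc1-/- testis and 2788 and 2735.3 in Tslc1+/+ testis. Both Tslc1-/- arrays were lower, by little: the log2 change was -0.17 with an interval from -0.48 to 0.14 (adjusted p = 0.75, limma), which leaves out a fall of more than 1.39-fold.

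Ctnna1 encodes alpha-catenin, the link from beta-catenin to actin. Its brighter probe set read 689.5 and 1037.1 in Tslc1-/- testis and 1019.2 and 911.6 in Tslc1+/+ testis. The pairs overlapped, with a log2 change of -0.18 and an interval from -0.73 to 0.37 (adjusted p = 0.862, limma), and without Tslc1-/- replicate 1 the log2 change was 0.10. Its other probe set, at 37.5 and 49.5 in Tslc1-/- testis and 36.1 and 20.1 in Tslc1+/+ testis, was under the signal minimum and was not tested.

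Vcl encodes vinculin, the actin-binding protein of adherens junctions and focal adhesions. The brighter probe set read 1207.4 and 1183.2 in Tslc1-/- testis and 1466.3 and 1418.1 in Tslc1+/+ testis. The arrays of each genotype lay close together and the genotypes did not overlap, but the log2 change of -0.26 had an interval from -0.66 to 0.14 (adjusted p = 0.699, limma). The dimmer probe set had a log2 change of 0.35, with 191.5 and 447.9 in Tslc1-/- testis and 161 and 301.6 in Tslc1+/+ testis, where the spread within a genotype exceeded the difference.

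Among the tight junction components, Cldn11 encodes the claudin that forms the sealing strands between Sertoli cells. Its brighter probe set read 1670.9 and 2005.5 in Tslc1-/- testis and 1696.9 and 1762.7 in Tslc1+/+ testis. The Tslc1-/- pair spanned the Tslc1+/+ pair, with a log2 change of 0.08 and an interval from -0.30 to 0.46 (adjusted p = 0.919, limma). The dimmer probe set read 62.1 and 307.6 in Tslc1-/- testis and 225.3 and 222 in Tslc1+/+ testis, a log2 change of -0.45 with an interval from -2.20 to 1.30, so it set hardly any bound.

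Tjp1 encodes the scaffold that ties claudins to actin. It read 1406 and 1933.1 in Tslc1-/- testis and 1909.5 and 1665.6 in Tslc1+/+ testis on its brighter probe set. The pairs overlapped, with a log2 change of -0.11 and an interval from -0.54 to 0.32 (adjusted p = 0.897, limma), and the log2 change was 0.11 without Tslc1-/- replicate 1. A second probe set read 12.1 and 17.9 in Tslc1-/- testis and 70.5 and 70.6 in Tslc1+/+ testis. These pairs did not overlap, but all 4 signals were far under the minimum of 200, and with dim probe sets fitted too the log2 change was -0.89 (adjusted p = 0.512, limma).

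Gja1 encodes the main connexin of Sertoli cell gap junctions. Its brighter probe set read 2349.8 and 2468.9 in Tslc1-/- testis and 2445.7 and 2562 in Tslc1+/+ testis. The pairs overlapped, with a log2 change of -0.05 and an interval from -0.37 to 0.26, so a change beyond 1.29-fold lower or 1.20-fold higher was outside it (adjusted p = 0.941, limma). The dimmer Gja1 probe set read 198.5 and 305.1 in Tslc1-/- testis and 291.4 and 316.9 in Tslc1+/+ testis, with a log2 change of -0.25 and an interval from -1.36 to 0.86.

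**Figure D2:**
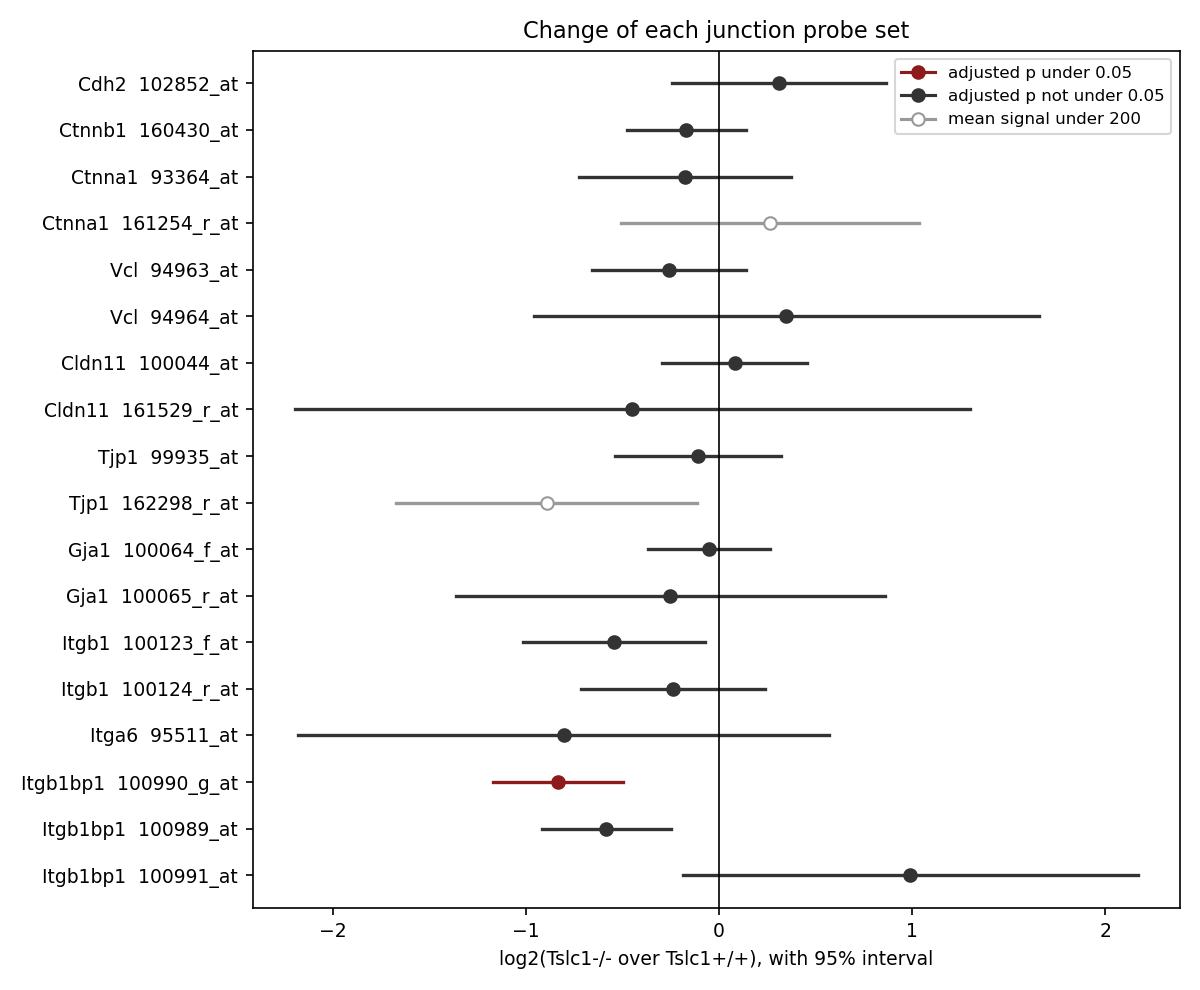
Log2 change of each of the 18 probe sets, Tslc1-/- over Tslc1+/+, with its 95% interval from limma, ordered by junction type with each gene's brightest probe set first. The interval of the brightest Itgb1bp1 probe set runs from -1.17 to -0.50 and is drawn in red as passing, and dim probe sets such as Itga6 have intervals that span several units.

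Precision followed brightness. The median 95% interval reached 1.15 log2 units to either side for tested probe sets with signals from 200 to 500, and 0.33 for those from 2000 to 5000. The brightest probe sets of Itgb1bp1, Itgb1, Ctnnb1 and Gja1 lie in the second of these bands and that of Itga6 in the first. As probe sets differ in how strongly they hybridise, signals of different genes are not compared here as transcript abundance. As positions on the array, averaged over the 4 arrays, the brightest probe sets stood at percentile 91.9 for Itgb1bp1, 89.0 for Itgb1, 88.3 for Ctnnb1, 87.6 for Gja1, 83.4 for Cldn11 and 82.7 for Tjp1. Vcl stood at 78.4, Cdh2 at 75.1, Ctnna1 at 70.7 and Itga6 at 38.8. All of these but Itga6 thus lay above the middle of the array, in every type of junction.

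**Figure D3:**
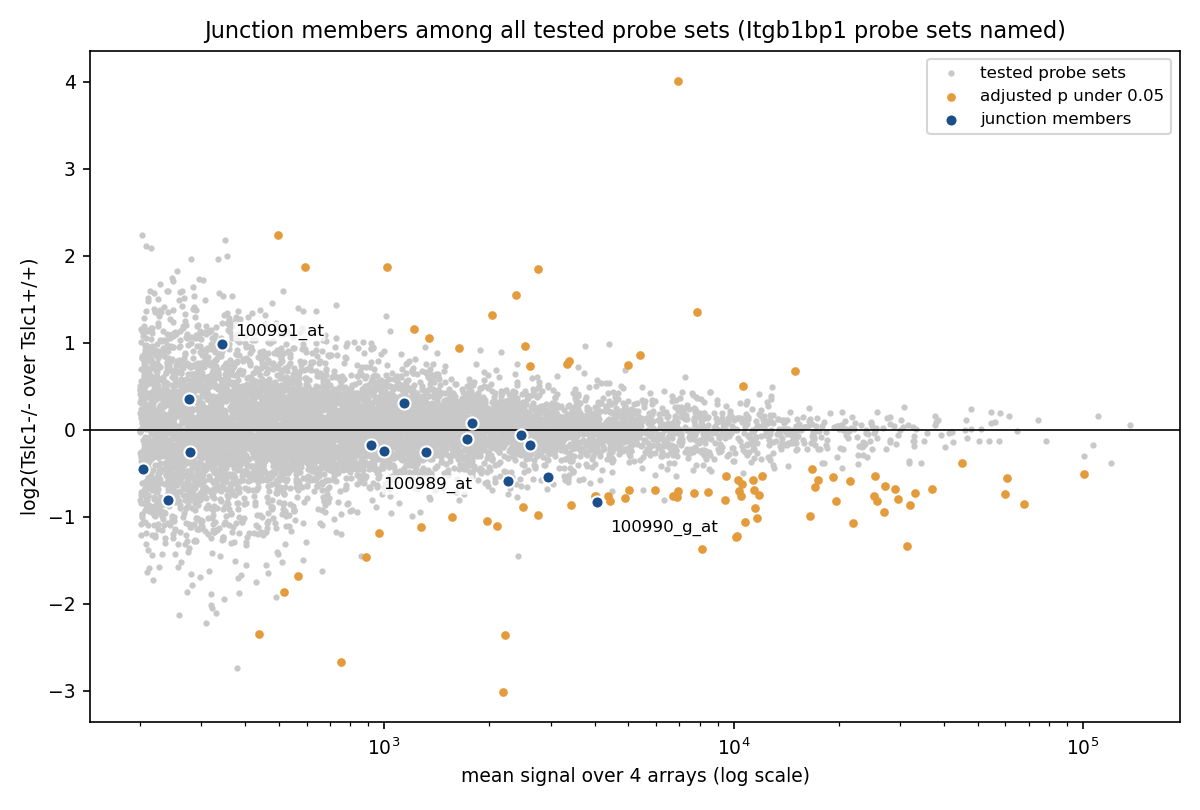
Log2 change, Tslc1-/- over Tslc1+/+, against mean signal on a logarithmic axis for the 7975 tested probe sets in grey, those with adjusted p under 0.05 in orange and the 16 junction probe sets in blue. The scatter narrows with signal, and the brightest Itgb1bp1 probe set, at a mean signal of 4076 and a log2 change of -0.84, lies at the lower edge of the cloud.

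The wider junction machinery was read from 6 lists of other adherens, tight, gap, integrin, adaptor and basement membrane genes. Of 144 genes listed, 106 were on the array and 68 were tested on 84 probe sets. None passed (limma, 0 of 84 probe sets at adjusted p under 0.05, 9 at an unadjusted p under 0.05, where 10% of all tested probe sets had such a p). By the brightest probe set of each gene the median log2 change was 0.05 over the 68, and 40 changes were positive and 28 negative.

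Among 20 other adherens genes the median log2 change was -0.01. The brightest was Ctnnd1, a catenin that steadies cadherins at the membrane, with 3721.9 and 4338.5 in Tslc1-/- testis and 4104.5 and 4074.4 in Tslc1+/+ testis and a log2 change of -0.02. By each gene's brightest probe set the smallest p was that of Jup, the catenin plakoglobin. It read 687.8 and 535.5 in Tslc1-/- testis and 318.6 and 436.2 in Tslc1+/+ testis, a log2 change of 0.63 (adjusted p = 0.583, limma). Dimmer probe sets of Cdh3 and Nectin2 had smaller p, with log2 changes of 1.06 and 0.37. The brighter ones of these genes had changes of -0.35 and -0.23.

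Among 9 other tight junction genes the median was 0.24. Cldn3, another claudin of the barrier, was dim and had the smallest p, with 321.9 and 165.2 in Tslc1-/- testis and 498.8 and 581.5 in Tslc1+/+ testis, a log2 change of -1.06 with an interval from -2.01 to -0.11 (adjusted p = 0.424, limma). Pard6a, a polarity protein of the junction and the brightest of that list, had a log2 change of 0.24 (adjusted p = 0.64, limma). Of 17 other gap junction genes listed only Gja5 and Gjb5 were tested, with log2 changes of 0.40 and 0.01, and Gja5 was both the brightest and the one with the smaller p (adjusted p = 0.682, limma).

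Among 9 other integrin genes the median was -0.01. Itgb5, a beta subunit of vitronectin receptors, read 1697.5 and 1397.3 in Tslc1-/- testis and 2597.5 and 2445.6 in Tslc1+/+ testis. Its Tslc1-/- arrays were both lower, with a log2 change of -0.69 and an interval from -1.06 to -0.33, yet the adjusted p was 0.0997 (limma), and its second, dimmer probe set was at -0.07. Itgae, the brightest integrin probe set of the list, had a log2 change of -0.01.

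Among 14 adaptor and focal adhesion genes the median was 0.08. Cd9, a tetraspanin that associates with integrins, was dim and had the smallest p. It read 428.2 and 419.9 in Tslc1-/- testis and 55.8 and 117.7 in Tslc1+/+ testis. The log2 change was 1.83 with an interval from 0.37 to 3.29 (adjusted p = 0.344, limma). Its mean signal of 255.4 passed the signal minimum, but both Tslc1+/+ signals lay under that minimum. The size of the Cd9 change thus rests on very dim Tslc1+/+ signals. Tln1, the talin that activates integrins and was the brightest of that list, had a log2 change of -0.04. Among 14 basement membrane genes the median was 0.14. Fn1, fibronectin, read 860.5 and 1216.7 in Tslc1-/- testis and 374.2 and 663 in Tslc1+/+ testis, a log2 change of 0.97 with an interval from 0.28 to 1.65 (adjusted p = 0.26, limma), and Dag1, the laminin-binding dystroglycan and the brightest of the list, had one of 0.06.

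**Figure D4:**
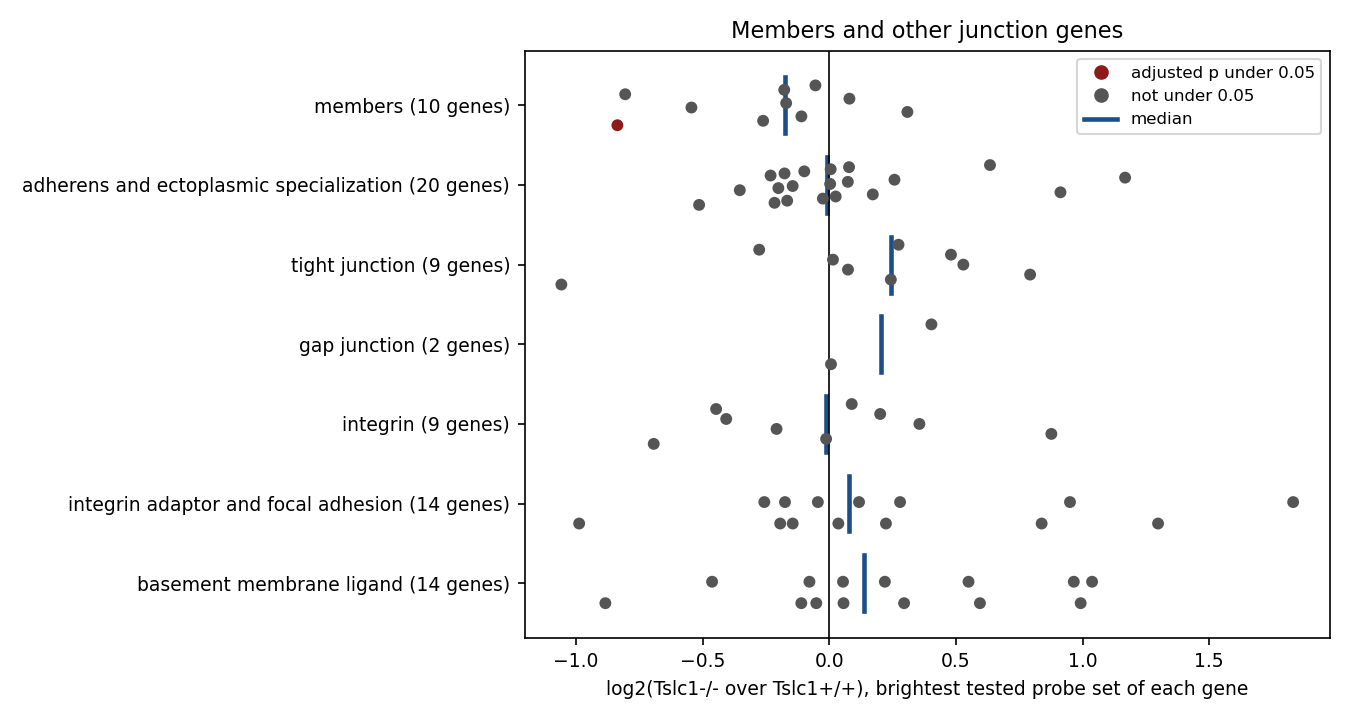
Log2 change of the brightest tested probe set of each gene, Tslc1-/- over Tslc1+/+, for the 10 members and for the 6 lists of other junction genes, with a blue bar at each median and red for adjusted p under 0.05. Itgb1bp1 at -0.84 is the red point, and the medians of the lists lie between -0.01 and 0.24.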

How the data were processed

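The deposited values are probe set signal intensity on a linear scale. The authors computed them with Affymetrix Microarray Suite (MAS5, per the submitters' processing notes) and, per the labels' design text, brought every array to a target of 1000, which hides any change in total RNA per testis. Poly(A)-primed cDNA favours the 3′ ends of transcripts. Present and absent calls, and signals of single probes, were not analysed here.

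Genes were assigned by the platform annotation, through Entrez identifiers and RefSeq of GRCm38.p6 (10817 of 10833 with 1 gene matched). Signals were used as log2(signal + 50), a scale that shrinks changes of dim probe sets, over probe sets with a mean signal of at least 200. The fit was limma 3.58.1 in R 4.3.3 with eBayes and a trend in brightness, two-sided, for Tslc1-/- minus Tslc1+/+, Benjamini-Hochberg adjusted over all 7975 tested probe sets. It was run on simulated data whose spread followed the fitted trend, so that run does not test the trend itself. The smallest two-sided p a permutation of 2 against 2 arrays allows is 0.333, and the number of arrays limits precision. Suffixes such as f, g and r, on 1621 tested probe sets, mark shared probes or relaxed probe selection.

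Named were the members, Cadm1, and from each other junction list any gene passing, the smallest p and the brightest, each gene by its brightest probe set. Cpsf3 was added for its position, and Gjb5, Pgk2, Sycp3, Cdh3, Nectin2 and the single endothelial and blood markers after their values were seen. Members and lists were chosen with earlier results of these data known. Alternatives changed the pseudocount, signal filter, normalization, trend, suffixed probe sets, arrays and replicate block.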

Additional observations from a re-analysis of the deposited data

How the results depend on the processing

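The count of junction probe sets passing was 1 with a pseudocount of 10 or 100, over signals of at least 500, with quantile normalization and with equal array medians. It was 0 with no filter on low signal, where 0.467% of all probe sets passed, 0 without the intensity trend, where 0 of all 7975 passed (638 at an unadjusted p under 0.05), and 0 over probe sets with no suffix, where 1.42% passed and the Itgb1bp1 probe set that passed was not tested. With each array left out it ranged from 0 to 1, with 0.464% to 0.539% of all probe sets passing against 1.08% with all arrays, and the members' median log2 change ranged from -0.29 to -0.0074, the upper end without Tslc1-/- replicate 1. The other junction lists gave 0 under each alternative but the replicate block. Deviations of same-numbered arrays correlated at -0.0012 over all tested probe sets. The main fit left the numbers out, but 1 such value cannot tell whether they mark a pairing that affects part of the probe sets. With the replicate number as a block 2 junction probe sets passed, both of Itgb1bp1, as did 2 of the other lists, of Itgb5 and Fn1, while 3% of all tested probe sets passed. Signs turned only for changes that did not pass. With an array left out, log2 changes ranged from -0.46 to 0.10 for Ctnna1, -0.33 to 0.11 for Tjp1, -0.048 to 0.21 for Cldn11, and, on dimmer probe sets, -1.29 to 0.39 for Cldn11, -0.51 to 0.0048 for Gja1 and -0.17 to 0.87 for Vcl. As means over a gene's tested probe sets, Cldn11 was at -0.19, Vcl at 0.044 and Itgb1bp1, which then did not pass, at -0.14. The causes were not tested. Dim probe sets limit what can be seen, such as those of Itga6 and the dimmer one of Cldn11.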
